A study of Mus musculus with 8 samples.

Results

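miR-155, miR-146a and miR-146b are microRNAs (miRNAs) known for their ties to inflammatory signalling. They were followed here through every mature form that the mouse miRNA array carried under those 3 stems. The rule took all spots that were not controls and whose name had the stem mmu-miR-155, mmu-miR-146a or mmu-miR-146b. It gave 4 names (miR-155, miR-146a, miR-146b and miR-146b*) of the 650 on the array, 10 probes of 1857, and 80 spots of 13000 per array. The rule itself reads names and no measured value, but the 3 stems were picked with earlier results of these data known.

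The cells were cultured microvascular smooth muscle cells of male C57BL6 mice, and all of them lacked Rap1a, a Ras-like GTPase. One group of 4 arrays (called RapCA) came from such cells transduced with virus carrying the RapCA construct, and the other 4 (called vector) from such cells given the empty Shuttle vector. In both groups cells had been grown in 10% serum, transduced overnight without serum, and allowed to recover for 48 h at 0.5% serum ahead of RNA extraction. The series title frames the comparison as knockout against rescue. The labels do not say what RapCA encodes, the array does not measure Rap1a, and nothing beyond the words biological replicate says how the cultures of a group were derived, so p-values measure the spread between these 8 samples.

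miRNAs are short RNAs that pair with messenger RNAs, mainly through the seed, bases 2 to 8 from the 5′ end, and lower their output. In innate immune cells, Toll-like receptor and cytokine signals switch on miR-155 and miR-146a through NF-kB and related factors. miR-155 is processed from the non-coding Bic transcript and lowers inhibitors of cytokine signalling such as Socs1. miR-146a and miR-146b lower the signalling proteins Irak1 and Traf6 and so act as a brake on the same pathway. In blood vessels both have been studied in endothelial cells, in smooth muscle cells and in the leukocytes that enter the wall.

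The mature sequences are shown because seeds define which of the members could share targets, and the capitals mark the seed. They are RefSeq's, on build GRCm38.p6, given 5′ to 3′. The array's unstarred names were taken as the 5p arms and the starred name as the 3p arm. All 4 names had an entry.
miR-155: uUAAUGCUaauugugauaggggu
miR-146a: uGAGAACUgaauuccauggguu
miR-146b: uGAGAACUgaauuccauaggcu
miR-146b*: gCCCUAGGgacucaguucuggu
miR-155 lies at chr16:84714143-84714165 on the plus strand, inside the span of Mir155hg, the host gene of the Bic transcript. miR-146a lies at chr11:43374435-43374456 on the minus strand, within the span of no other gene of the table. miR-146b and miR-146b* lie on the plus strand at chr19:46342790-46342811 and chr19:46342828-46342849, within the span of the non-coding gene Gm36493, whose strand the gene table does not give. The hairpin of miR-155 is shown with the measured arm in capitals, since it was the one member with signal.
miR-155 hairpin: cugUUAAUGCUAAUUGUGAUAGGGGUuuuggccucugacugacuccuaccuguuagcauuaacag

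miR-146a and miR-146b shared the seed GAGAACU and were identical at 20 of 22 bases. With miR-146a as the first sequence and positions counted from its 5′ end, the differences were G18A and U21C. Probes for the pair could therefore take up each other's target, and this was not tested. In the RefSeq table no mature mouse miRNA other than this pair had that seed. The seed of miR-155, UAAUGCU, was held by miR-155 alone, and that of miR-146b*, CCCUAGG, by miR-146b* alone.

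Signal was read in 1 colour (Cy3), 1 sample per array, and all 8 arrays lay on 1 slide. The vector arrays filled one row of the slide and the RapCA arrays the other, so that the row and the group cannot be told apart. Total miRNA signal before scaling was 56618 on RapCA replicate 1, between 26374 and 29218 on the other RapCA arrays, and between 59506 and 81972 on the vector arrays. The 4 spike-in RNAs that gave signal had geometric means from 1152 to 1387 on the RapCA arrays and from 1180 to 1405 on the vector arrays. Since totals differ, each miRNA was measured relative to other miRNAs on its array: an array's signal was divided by a factor that brought its 75th percentile, taken over 189 probes seen on each of the 8 arrays, to a common level. Detection of a probe required that a share above 0.5 of the spots kept for it carried the scanner software's flag for a signal well above background. The defining miRNAs of smooth muscle fitted the label only in part. miR-143 was detected on 4 of 4 RapCA and 4 of 4 vector arrays, whereas miR-145, from the same transcript, was detected on 0 of 4 RapCA arrays and on 4 of 4 vector arrays.

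miR-155 was the single member detected, on all 8 arrays, and relative to other miRNAs it was higher in RapCA cells. The detected probe gave scaled signals of 40.4, 49.6, 43.4 and 43.1 on RapCA replicates 1 to 4, against 18.6, 14.6, 13.5 and 15.6 on vector replicates 1 to 4. Every RapCA array lay above every vector array, and the lowest RapCA value was more than the highest vector value by more than the whole range within either group. On the log2 scale miR-155 averaged 5.45 ± 0.12 in RapCA cells and 3.94 ± 0.20 in vector cells (SD, n = 4 each). The difference of 1.52 ± 0.12 (SE; 95% interval 1.25 to 1.78) passed limma's test across all 168 tested miRNAs (adjusted p = 2.82e-06). In these bulk samples, a larger share of cells with miR-155 and more miR-155 per cell cannot be told apart.

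Changes of this kind were common on these arrays. limma called 76.2% of the 168 tested miRNAs changed, 26.2% raised and 50.0% lowered, and the median change of all tested miRNAs was -0.30 on the log2 scale. These numbers, 44 raised and 84 lowered, depended on the processing. Without scaling, 10 were raised and 113 lowered. With normexp background correction of median spot signals and an offset of 50, a setting chosen after the data had been seen that changes several steps at once, 80 were raised and 20 lowered. The rise of miR-155 was number 12 in size among the 168. RapCA arrays lay wholly above vector arrays for 21.4% of tested miRNAs.

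**Figure D1:**
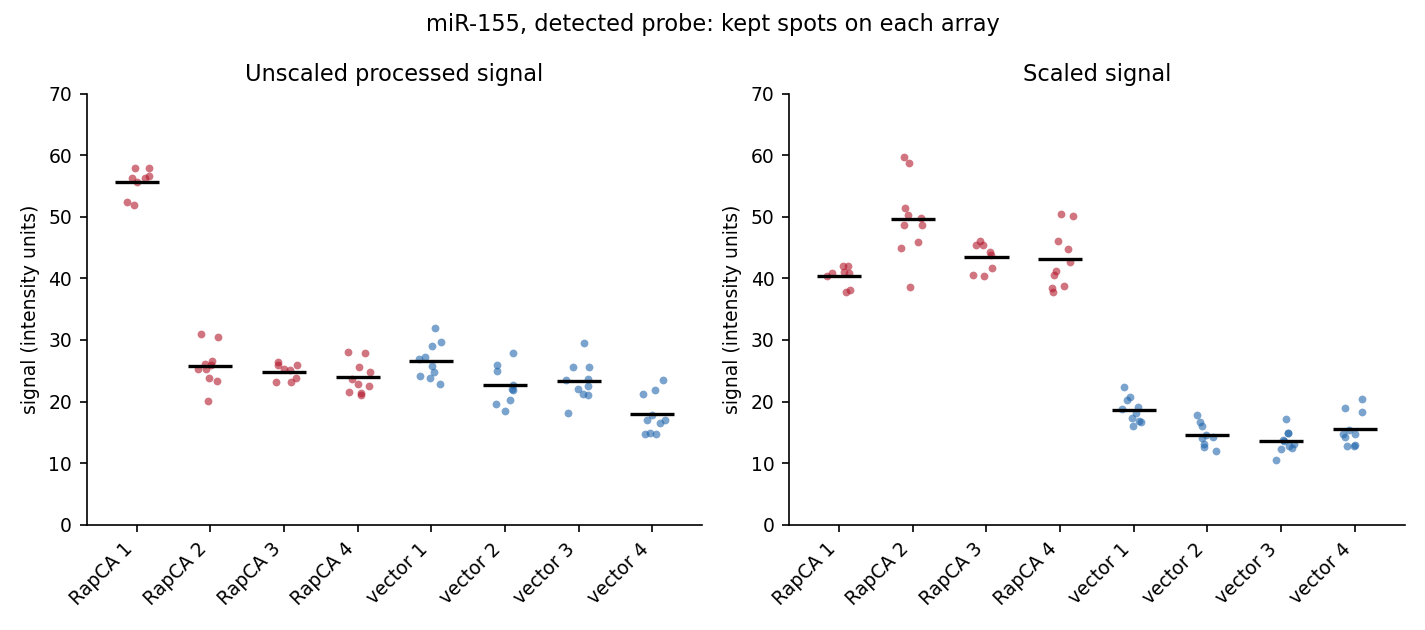
Signal of each kept spot of the detected miR-155 probe on each array (intensity units), unscaled on the left and scaled on the right, with RapCA arrays in red, vector arrays in blue and the mean per array as a black bar. Unscaled, RapCA replicate 1 stands at 55.6 and the other 3 RapCA arrays lie between 23.9 and 25.8, within the vector range of 17.9 to 26.6; scaled, all RapCA means (40.4 to 49.6) lie above all vector means (13.5 to 18.6).

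Before scaling the groups overlapped. The same probe read 55.6, 25.8, 24.8 and 23.9 on RapCA replicates 1 to 4, against 26.6, 22.7, 23.3 and 17.9 on vector replicates 1 to 4. RapCA replicate 1 was 2.46 times the vector mean, and the mean of the other 3 RapCA arrays was 1.10 times it. The 3 RapCA arrays within the vector range were those with low total miRNA signal, and the one above it was the RapCA array with a total nearest to the vector arrays. Without scaling the log2 difference was 0.45 ± 0.29 (SE; 95% interval -0.21 to 1.10) and limma did not call it (adjusted p = 0.188). Over 24 alternatives for miR-155 limma's adjusted p lay between 2.34e-06 and 0.348. Without scaling 5.95% of the 168 miRNAs were called raised and 67.3% lowered, with a median change of -1.03.

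Spike-in scaling gave a like result, with a log2 difference of 0.45 ± 0.32 (SE; 95% interval -0.25 to 1.15; limma adjusted p = 0.223). The spike-scaled signals were 58.6, 25.5, 26.7 and 21.4 on RapCA replicates 1 to 4, against 23.5, 23.8, 24.5 and 18.4 on vector replicates 1 to 4. Without scaling and without RapCA replicate 1, the difference was 0.16 ± 0.15 (SE; 95% interval -0.18 to 0.49). That setting was chosen after the data had been seen. The unscaled intervals hold 0 and also positive differences, so an equal amount of miR-155 in both groups was not shown either.

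Measures that set miR-155 against other miRNAs on the same array used no percentile factor, but they depend on those other miRNAs. The share divides by total miRNA signal, which is itself a scaling. That total was lower on RapCA replicates 2 to 4 (26374 to 29218) than on the vector arrays (59506 to 81972). The miR-155 value that enters the share was 16.1 to 17.1 on these RapCA replicates, within the vector range of 11.8 to 17.6. The share of miR-155 in total miRNA signal was 0.0744%, 0.0648%, 0.0567% and 0.0567% on RapCA replicates 1 to 4, against 0.0273%, 0.0201%, 0.0184% and 0.0198% on vector replicates 1 to 4. The shares did not overlap, and the RapCA mean was 2.95 times the vector mean (exact permutation p = 0.0286, two-sided, the smallest that 4 against 4 arrays allow, and 0.0667 after adjustment over 7 measures of miR-155). Among the 189 probes detected on all arrays, ordered from dim to bright within each array, the miR-155 probe stood at place 48, 55, 46 and 44 on RapCA replicates 1 to 4, against 17, 11, 7 and 5 on vector replicates 1 to 4. These places did not overlap either (exact permutation p = 0.0286, adjusted 0.0667). How many other miRNAs lacked overlap in share or place was not counted. On scaled log2 values, RapCA arrays lay wholly above vector arrays for 21.4% of the 168 tested miRNAs. The order within the array was added after the data had been seen. For unscaled signal the exact permutation p was 0.200 (adjusted 0.267).

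**Figure D2:**
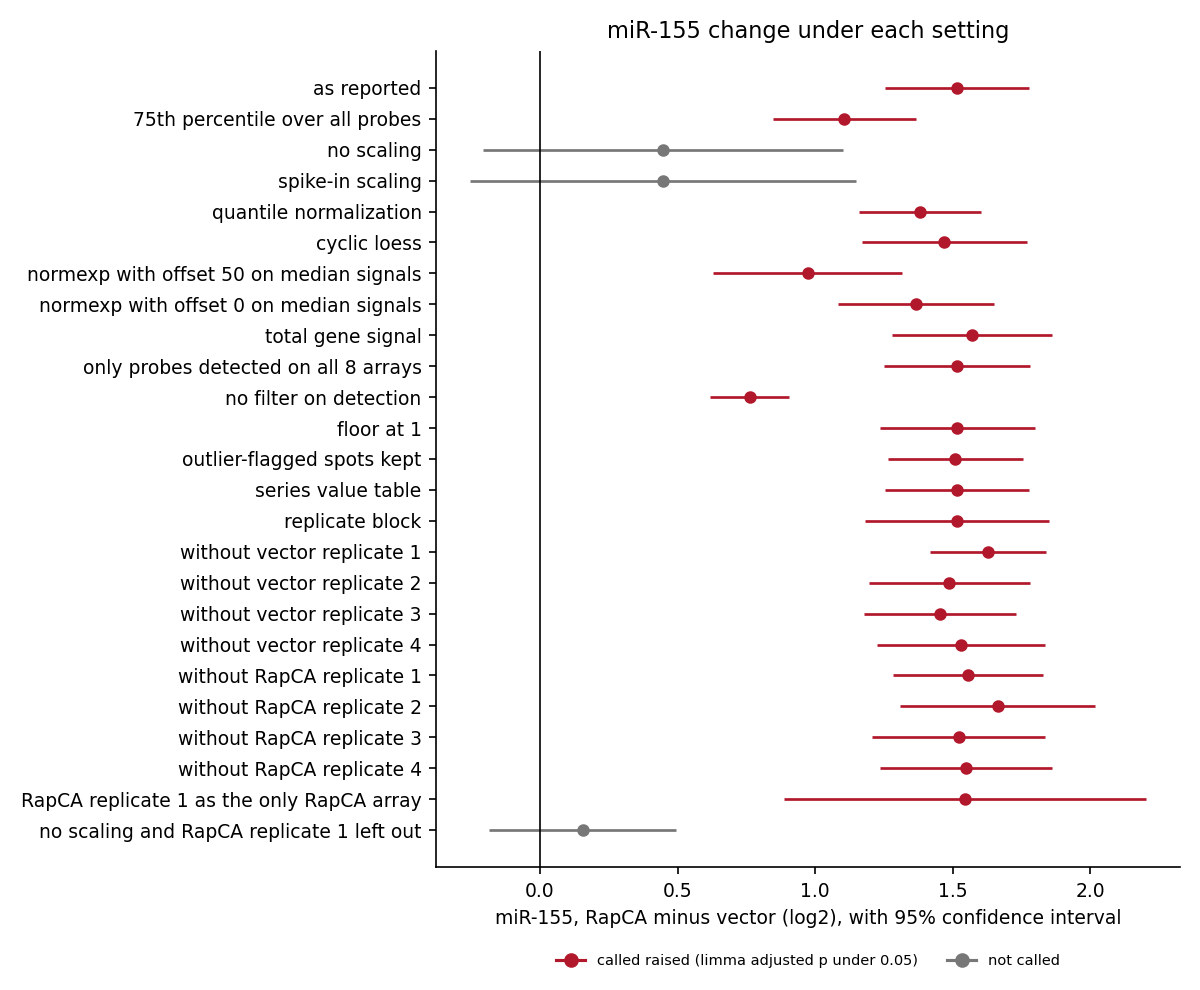
miR-155 change, RapCA minus vector on the log2 scale, with its 95% confidence interval, as reported and under 24 alternatives; red points were called raised by limma and grey points were not. The points lie between 0.16 and 1.66, and the 3 grey ones are those without scaling or with spike-in scaling.

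The miR-155 difference was above 0 in all 24 alternatives shown in the plot of settings, and limma called miR-155 raised in 21 of them. The 3 exceptions were no scaling, spike-in scaling, and no scaling without RapCA replicate 1. Leaving out any 1 array gave 1.45 to 1.66, called in 8 of 8 cases. With RapCA replicate 1 as the lone RapCA array, the one whose total signal was near that of the vector arrays, the difference was 1.54 ± 0.23 (SE; limma adjusted p = 0.0125). That fit assumes that the lone array varies like the vector arrays.

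The value rests on 1 of 2 probes. Each miR-155 probe had 10 spots per array. For the detected probe (A_54_P2337), all 75 spots kept over the 8 arrays were well above background, and the SD between spots of an array was 1.31 to 3.21 intensity units. The other probe (A_54_P2336) was not detected on any array, with 1 of 75 kept spots well above background. Its unscaled means were 8.08, 2.14, 1.81 and 0.775 on RapCA replicates 1 to 4, against 2.43, 1.48, 1.45 and 0.437 on vector replicates 1 to 4. Only on RapCA replicate 1, the array with the brightest miR-155, did this probe exceed the median of the negative control spots (2.81 there). Averaging both probes with no filter on detection gave a log2 difference of 0.76 ± 0.06 (SE), since the second probe lies at the floor of the log2 scale, where no change can show. The scanner software's own value per miRNA, which combines probes, was 42.1, 17.1, 16.6 and 16.1 on RapCA replicates 1 to 4, against 17.6, 14.8, 15.1 and 11.8 on vector replicates 1 to 4, unscaled.

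In the authors' deposited table of selected miRNAs, miR-155 was listed with 42, 39, 31 and 33 on RapCA replicates 1 to 4, against 19, 14, 12 and 14 on vector replicates 1 to 4. The normalization of that table is not stated in the sources used here. The table comes from the same 8 arrays, so it is not separate evidence. In it each RapCA value lay above each vector value. miR-146a, miR-146b and miR-146b* had no entry in it.

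miR-146a, miR-146b and miR-146b* gave no signal above background in either group. Their 8 probes were detected on 0 of 8 arrays, and of the 465 spots kept over all arrays 0 were well above background. Lack of detection was the usual outcome, since 216 of the 650 names were detected on at least 1 array. The scanner software flagged 15 more spots as outliers, of which 2 were well above background. One was a miR-146a spot on vector replicate 2 with a signal of 49.99 (median of its probe -3.22). The other was a miR-146b spot on vector replicate 3 with 11.3 (median of its probe -2.97).

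The miR-146a signal, averaged over its 2 probes, was -1.93, -3.62, -2.74 and -2.22 on RapCA replicates 1 to 4, against -1.50, -3.38, -2.16 and -1.80 on vector replicates 1 to 4. For miR-146b the means were -0.306, -3.00, -2.26 and -1.85 on RapCA replicates 1 to 4, against -0.552, -2.23, -1.76 and -1.70 on vector replicates 1 to 4. The passenger strand miR-146b*, with 4 probes, lay between -3.81 and -2.24 on the RapCA arrays and between -3.43 and -2.35 on the vector arrays. These values are unscaled intensities after background subtraction, for which values below 0 lie below the background that the scanner software subtracted. The groups overlapped for all 3 names.

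On every array the miR-146 probes were dimmer than the array's own negative controls. The median of the 434 negative control spots was 2.24 to 3.11 on the RapCA arrays and 2.30 to 2.94 on the vector arrays, while the highest miR-146 probe mean was -0.0939 on the RapCA arrays and 0.374 on the vector arrays. All 64 pairs of probe and array had a mean below that array's negative control median, and 0 of the kept spots passed the 95th percentile of the negative control spots. The dimmest detected probe had an unscaled mean of 9.67 to 13.7 on the RapCA arrays and 9.10 to 12.5 on the vector arrays, so miR-146a or miR-146b signal below about that level would not have been seen. Both groups were below background, so no fold change is given and the members were not tested. A difference in miR-146a or miR-146b between RapCA and vector cells was not detectable on these arrays, which is not the same as absent.

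**Figure D3:**
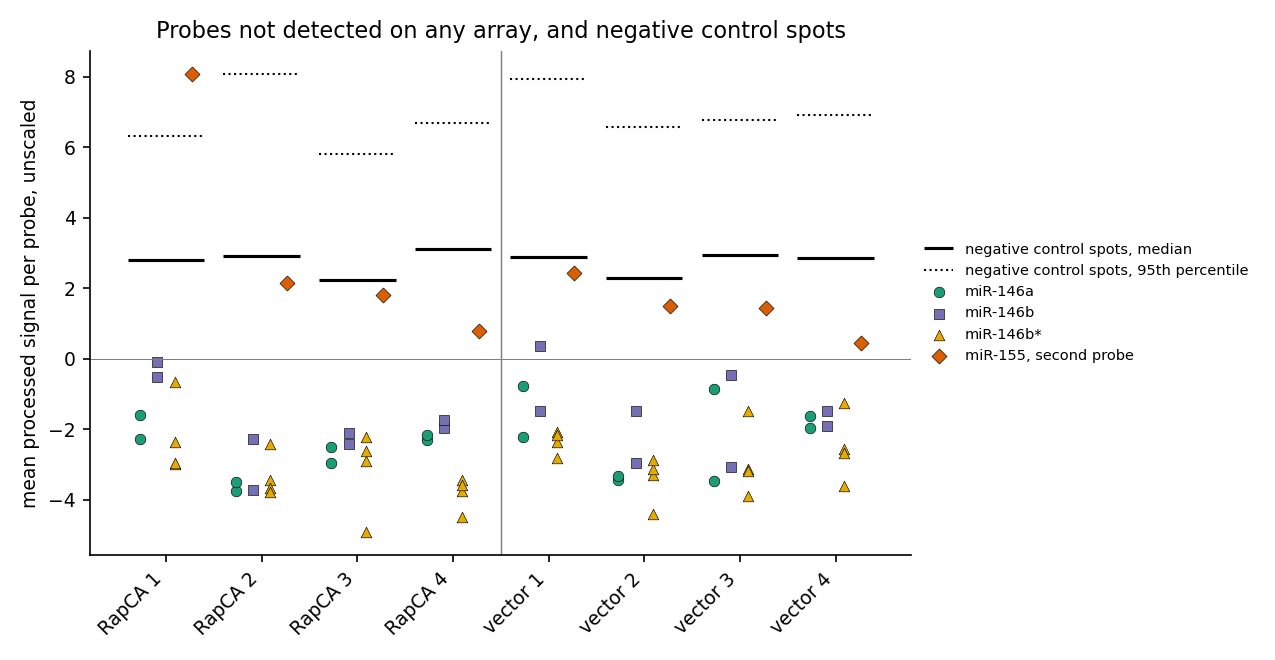
Mean unscaled processed signal (intensity units) of each member probe that was not detected, on the 4 RapCA arrays at left and the 4 vector arrays at right, with the median (solid bar) and 95th percentile (dotted bar) of the negative control spots of each array. All miR-146 probes lie below the solid bars, and the second miR-155 probe passes them on RapCA replicate 1 alone (8.08).

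Markers of leukocytes, the cells best known for miR-155, were not detected. Of the 6 blood cell markers on the list (miR-223 of myeloid cells, miR-142-3p and miR-142-5p of all leukocytes, miR-150 of lymphocytes, miR-144 and miR-451 of red cells), 0 were detected on any array. No marker of the 6 had a value above the small cut-off used in summing signals, on any RapCA or vector array. The endothelial markers miR-126-3p and miR-126-5p were likewise not detected on any of the 8 arrays. Most names on the array shared this, since 216 of 650 were detected on at least 1 array. The 2 smooth muscle markers were called lowered, as were 50.0% of the 168 tested miRNAs. miR-143 averaged 5.32 ± 0.25 in RapCA cells and 6.94 ± 0.20 in vector cells (log2, SD, n = 4 each), a difference of -1.62 ± 0.15 (SE; limma adjusted p = 6.66e-06). miR-145 was detected on 0 of 4 RapCA arrays and entered the test through the vector arrays alone. It was called lowered in 22 of 23 alternatives and raised in 1. The summed unscaled signal of miR-143 and miR-145 was 26.9 to 98.4 on the RapCA arrays and 187 to 326 on the vector arrays. Total miRNA signal was itself lower on RapCA replicates 2 to 4 (26374 to 29218) than on the vector arrays (59506 to 81972). The part of these marker changes in the miR-155 result was not tested.

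A first list held other miRNAs that inflammatory signals switch on in macrophages. Of the 11 on that list 7 were tested, of which 1 was raised, 3 were lowered and 3 were not called, beside 26.2% raised and 50.0% lowered among all tested miRNAs. The median change was -0.03, beside -0.30 for all tested miRNAs. Counts this small do not set the list apart from the rest of the array. miR-125a-5p, miR-99b and let-7e, which come from one cluster, were the lowered members, with log2 differences of -0.49 ± 0.18, -1.04 ± 0.12 and -0.71 ± 0.13 (SE, n = 4 per group; limma adjusted p = 0.0330, 3.27e-05 and 0.000686). miR-125a-5p was called in 14 of 24 alternatives, and not without vector replicate 1, vector replicate 4, RapCA replicate 2 or RapCA replicate 3. The raised member, miR-222, is a miRNA of proliferating smooth muscle that was named after its value was seen. It averaged 4.80 ± 0.15 in RapCA cells and 3.81 ± 0.15 in vector cells (log2, SD, n = 4 each), a difference of 1.00 ± 0.11 (SE; limma adjusted p = 2.40e-05) that became -0.01 and was not called without scaling.

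Its cluster partner miR-221 had 0.07 ± 0.09 (SE; limma adjusted p = 0.483) and was not called. miR-21, the abundant miRNA of vessel injury, had -0.03 ± 0.18 (SE; limma adjusted p = 0.863). miR-212, which CREB induces together with miR-132, had 0.43 ± 0.18 (SE; limma adjusted p = 0.0545) and was called raised in 8 of 24 alternatives and lowered in 1, with values from -0.84 to 0.61 and a sign below 0 in 3 of them. miR-9, miR-132, miR-147 and miR-187 were detected on 0 of 8 arrays. Without scaling, 0 of the 7 tested members were raised and 5 were lowered, with a list median of -1.10 beside -1.03 for all tested miRNAs.

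The second list held miRNAs reported to restrain Toll-like receptor or NF-kB signalling or vascular adhesion molecules, the part that miR-146 plays in immune cells. Of its 12 members 11 were tested, of which 2 were raised, 6 were lowered and 3 were not called, near the 26.2% raised and 50.0% lowered among all tested miRNAs. The median change was -0.54, beside -0.30 for all tested miRNAs. Among the lowered were miR-199a-5p, reported in human cells to act on the kinase IKKβ, with -1.45 ± 0.10, miR-199a-3p with -0.90 ± 0.10, and miR-23b, reported to act on the adaptors TAB2 and TAB3, with -0.97 ± 0.09 (log2, SE, n = 4 per group; limma adjusted p = 1.08e-06, 3.12e-05 and 6.66e-06). These 3 stayed lowered in 24 of 24 alternatives. let-7i, reported in human cells to act on TLR4, had -0.02 ± 0.11, and miR-125b-5p, reported to act on the transcript of tumour necrosis factor, had 0.15 ± 0.13, and neither was called. The raised members were miR-15a (0.55 ± 0.16) and, named after its value was seen, miR-31 (0.24 ± 0.08), with limma adjusted p = 0.0115 and 0.0241 (SE, n = 4 per group), and both turned negative without scaling (-0.52 and -0.83). Without scaling 10 of the 11 were lowered and 0 raised. miR-126-3p, which restrains the adhesion molecule VCAM1 in endothelium, was not detected.

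**Figure D4:**
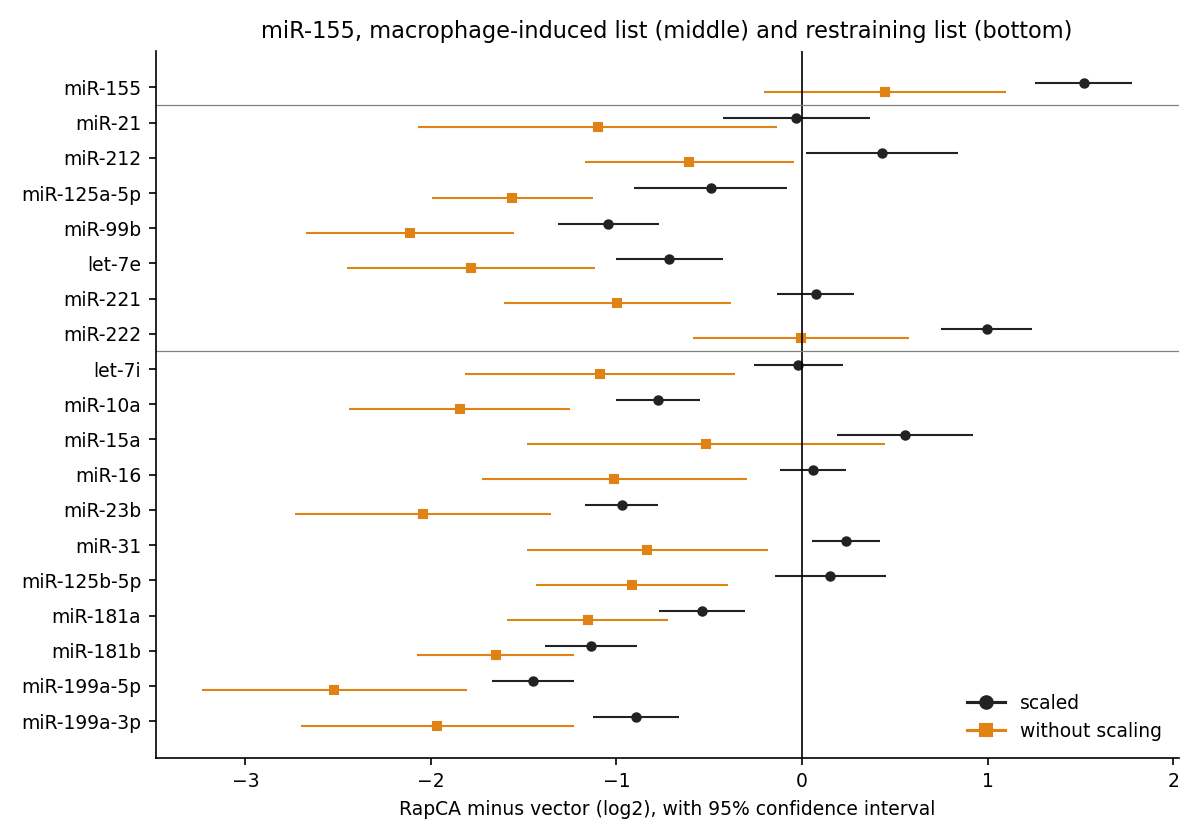
Change of miR-155 (top) and of the tested members of both inflammation lists, RapCA minus vector on the log2 scale with 95% confidence intervals, scaled (black circles) and without scaling (orange squares). miR-155 lies furthest to the right on either scale, at 1.52 scaled and 0.45 without scaling, and 3 of 7 tested members of the first list and 6 of 11 of the second were lowered after scaling, beside 50.0% of all 168 tested miRNAs.

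The miRNAs whose pattern over the 8 arrays was nearest to that of miR-155 belonged to neither list. Likeness was the mean absolute difference between log2 scaled values, each centred on its own mean, over 114 candidates with a probe detected on all arrays, for which the median distance was 0.896. miR-494, a miRNA of the imprinted Dlk1-Dio3 domain, was nearest with 0.124. It was followed by miR-92a of the miR-17 cluster (0.179), miR-125a-3p (0.198), the other arm of the miR-125a hairpin, and miR-20b (0.212), of a paralogous cluster on the X chromosome. Their log2 differences were 1.51 ± 0.10, 1.78 ± 0.14, 1.20 ± 0.18 and 1.46 ± 0.13 (SE, n = 4 per group). Without scaling miR-92a was called raised (0.71), and miR-494 (0.44), miR-125a-3p (0.13) and miR-20b (0.39) were not, as was the case for miR-155. The likeness describes 8 shared arrays and was chosen on their values.

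**Figure D5:**
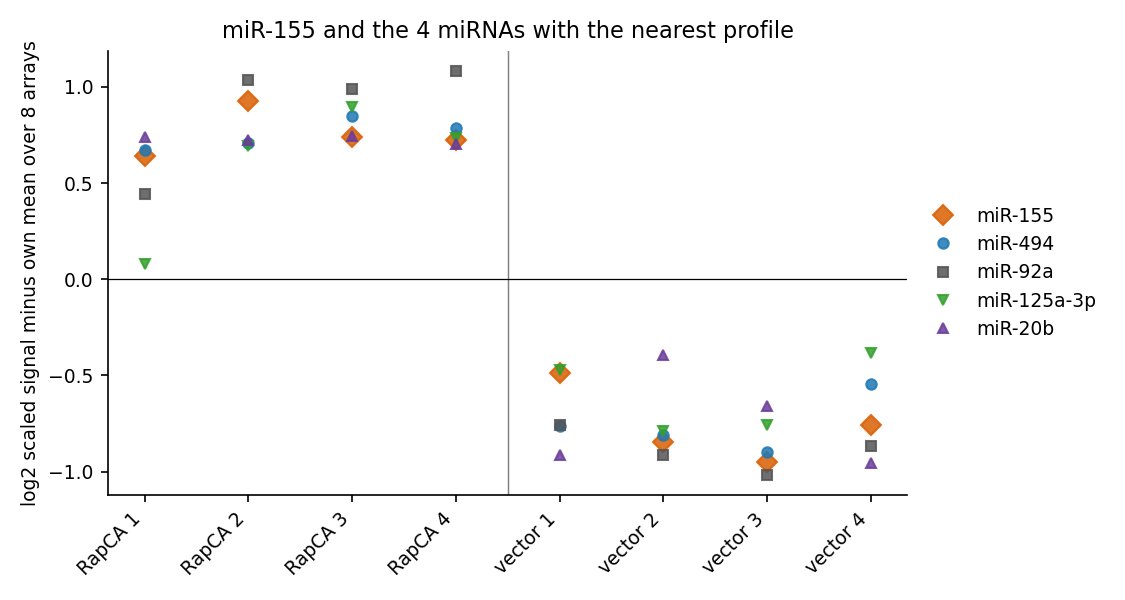
Log2 scaled signal minus each miRNA's own mean over the 8 arrays for miR-155 (orange diamonds) and the 4 miRNAs with the nearest profile, RapCA arrays at left and vector arrays at right. All 5 lie above 0 on the RapCA arrays and below 0 on the vector arrays; on RapCA replicate 1 miR-155 stands at 0.64 and miR-125a-3p at 0.08.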

How the data were processed

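Spot intensity came, per the file headers, from the authors' run of Agilent Feature Extraction 10.7.3.1 (10.7 in the submitters' processing notes), with background subtracted, spatial detrending and no scaling between arrays. The deposited series-wide value table equalled these values. The authors' deposited table of selected miRNAs has an unstated normalization.

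Control spots and outlier-flagged spots were left out (2.98% to 4.66% of spots per array; 0 saturated). The processed signal was scaled as described, floored at 9.61 (3.26 in log2), converted to log2 and averaged per probe. The floor was the median over arrays of percentile 1 of spots well above background. A miRNA's log2 value is the mean of its probes that were detected throughout either group. limma 3.58.1 (R 4.3.3; lmFit, eBayes, two-sided, Benjamini-Hochberg over 168 miRNAs, threshold 0.05) compared groups with no covariate. The steps were also run on simulated spots with known changes. That simulation had as many raised as lowered miRNAs, so it does not cover the uneven changes of these arrays. Single values were compared by exact permutation over 70 assignments. Members and lists were chosen with earlier results of these data known. Named miRNAs are all members, up to 6 of the brightest tested members of each inflammation list, the leukocyte, endothelial and smooth muscle markers, and the 4 nearest profiles. The planned ratio between members could not be computed because 1 member was detected. The number of arrays limits precision.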

Additional observations from a re-analysis of the deposited data

Results flagged for a closer look

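Among 18 groups of 4 values checked for miR-155 and the miR-146 names, 2 had a value that stood apart from the other 3 of its group, where chance flags about 1 group in 20. Both were RapCA replicate 1. The groups are not independent, because several hold different measures of the same miR-155 spots, so the 2 values are not separate outliers. Its unscaled miR-155 probe signal was 55.6, with the nearest other RapCA array at 25.8. Its unscaled value from the scanner software was 42.1, with the nearest other at 17.1. Total miRNA signal on that array was also the highest of the RapCA group (56618, against 26374 to 29218), and after scaling its miR-155 signal of 40.4 was the lowest of the 4 RapCA arrays.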

How the results depend on the processing

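Values are log2 differences, RapCA minus vector, or counts of called miRNAs. miR-155 was not called without scaling (0.45), with spike-in scaling (0.45) or without scaling and RapCA replicate 1 (0.16), and leaving out 1 array gave 1.45 to 1.66. Raised miRNAs numbered 28 when all probes set the percentile, 10 without scaling, 9 with spike-in scaling, 10 without scaling and RapCA replicate 1, and 80 under normexp with an offset of 50, against 44 as reported. Lowered miRNAs numbered 140 without scaling and RapCA replicate 1 and 20 under normexp with an offset of 50, against 84 as reported. Leaving out 1 array gave 39 to 49 raised and 61 to 85 lowered. The median change of all tested miRNAs was -0.61 with the percentile over all probes, -1.08 with spike-in scaling, -1.26 without scaling and RapCA replicate 1, and 0.37 under normexp with an offset of 50, and the cause of these shifts was not tested.

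Signs turned as follows. Without scaling, with spike-in scaling and without scaling and RapCA replicate 1, in that order, values were -0.92, -0.92 and -1.14 for miR-125b-5p, -0.52, -0.52 and -0.95 for miR-15a, -0.61, -0.61 and -0.84 for miR-212, -0.996, -0.995 and -1.26 for miR-221, -0.0066, -0.0053 and -0.24 for miR-222, and -0.83, -0.83 and -1.12 for miR-31. The last of these settings gave -0.026 for miR-125a-3p. The percentile over all probes gave -0.26 for miR-125b-5p, -0.34 for miR-221 and -0.17 for miR-31. RapCA replicate 1 as the lone RapCA array gave -0.044 for miR-125b-5p, 0.080 for let-7i and 0.41 for miR-21. Cyclic loess, quantile normalization and total gene signal gave 0.14, 0.10 and 0.076 for let-7i and 0.013, 0.066 and 0.053 for miR-21. Leaving out 1 array gave up to 0.19 for let-7i (-0.10 at the lowest) and up to 0.23 for miR-21 (-0.14 at the lowest). Normexp with an offset of 50 gave 0.45 for miR-145.

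With the replicate number as a block, miR-155 had 1.52 (41 raised and 77 lowered in all). Same-numbered arrays, which share a column of the slide, deviated together for replicate 4 alone: the correlations of their deviations from the group means were -0.71, -0.65 and -0.69 for replicates 1 to 3 and 0.71 for replicate 4. The numbers were therefore not taken to pair the samples. Normexp used median spot signals, chosen after the files had been seen because they hold no mean signal. A slide block was not run, as there was 1 slide. Signal over background limited the miR-146 names, which gave no value under any setting with a detection filter.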

Other observations

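Marker miRNAs of further cell types were not detected on any array for epithelium (0 of 6 detected) and hepatocytes (miR-122). Among all 650 names, 216 were detected on at least 1 array. Of the striated muscle markers, 4 were on the array. miR-1, miR-133a and miR-133b were detected on 0 of 4 RapCA and 0 of 4 vector arrays. miR-206 was detected on 4 of 4 RapCA and 4 of 4 vector arrays, at 4.31 ± 0.05 and 4.25 ± 0.15 (log2, SD, n = 4 each), with a difference of 0.06 ± 0.10 (SE), not called by limma (adjusted p = 0.579). The neuronal marker miR-128 was detected on 1 RapCA and 2 vector arrays and was not tested. The other neuronal markers, miR-124 and miR-9, were not detected on any array.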
